A study of Mus musculus with 8 samples.

Results

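miR-191 and miR-425 are a pair of microRNAs cut from hairpins that lie close together on mouse chromosome 9, at the Dalrd3 locus. All entries named mir-191 or mir-425 were taken from the 8 deposited tables, whatever the species of the entry. These were 3 of 764 entries: mir-191 and mir-425 of mouse and mir-425 of human. Summed over species by name and arm they gave 4 of 683 miRNAs, which are miR-191-5p, miR-191-3p, miR-425-5p and miR-425-3p. The series measured small RNA in whole hearts of wild-type C57Bl6/J mice, with 4 female and 4 male animals and 1 library for each. The mice were 4 to 6 weeks old, which the labels call adult, and the labels give no treatment. RNA was enriched for molecules below 200 nt, per the labels. Libraries held 29900500 to 38894987 hairpin reads, so both partners were read many times over in every heart. Of the 4 cardiac muscle miRNAs listed as a check of the tissue, 3 (miR-1a-3p, miR-208a-3p and miR-499-5p) were detected in every heart. No miRNA named miR-133a-3p was among the 562 that passed the filter on low counts. Names outside the list held many reads, with a mean of 6342 CPM (defined below) for miR-133c-5p. For miR-1b-5p the mean was 297288 CPM, beside 1041 CPM for the listed miR-1a-3p. The list thus covers only part of the reads under miR-1 and miR-133 names.

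A microRNA gene is transcribed as a long primary RNA, from which the enzymes Drosha and Dicer cut a hairpin and then a short duplex. One strand of the duplex, from the 5' or the 3' arm, is usually kept in an Argonaute protein, where bases 2 to 8, the seed, pair with target messenger RNAs. Hairpins of one primary RNA are made together, but the levels of their mature products also depend on cutting, strand choice and decay. miR-191-5p is found in many tissues and is often used as a reference in quantitative PCR. miR-425-5p is known in human for repressing the message of NPPA, the precursor of atrial natriuretic peptide, a hormone made by heart muscle. Dalrd3 encodes a protein with an anticodon-binding domain that takes part in transfer RNA methylation.

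The mature sequences are shown first because the partners, although neighbours, carry different seeds and so are not members of one family. They are from RefSeq (GRCm38, the assembly of mm10), 5' to 3', with the seed in capitals, and all 4 arms matched an entry there by name. miR-489-3p is shown beside them because it was the sole other one of 1738 mature mouse sequences in that table with a seed of these 4, that of miR-425-5p.
miR-191-5p: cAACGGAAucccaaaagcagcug
miR-191-3p: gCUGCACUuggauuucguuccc
miR-425-5p: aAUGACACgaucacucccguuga
miR-425-3p: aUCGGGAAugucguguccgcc
miR-489-3p: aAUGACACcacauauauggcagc

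The hairpins are printed with both mature arms in capitals, since reads counted on neither arm were listed apart and prove to matter for mir-425. Mir191 lies at chr9:108568319-108568392 and Mir425 at chr9:108568777-108568861, both on the plus strand, with 384 bases between them.
Mir191 hairpin: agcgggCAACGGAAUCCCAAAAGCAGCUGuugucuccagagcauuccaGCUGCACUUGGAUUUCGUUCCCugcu
Mir425 hairpin: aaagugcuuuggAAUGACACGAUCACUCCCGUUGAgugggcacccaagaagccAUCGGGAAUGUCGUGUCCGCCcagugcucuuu
The Mir191 hairpin leaves 6 bases before the 5' arm and 4 after the 3' arm. The Mir425 hairpin leaves 12 and 11.

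The host gene depends on the annotation. In RefSeq, Dalrd3 spans bases 108567484 to 108572773 of chromosome 9 and holds both hairpins. In GENCODE vM21, Dalrd3 starts only at base 108569886, downstream of both. There the hairpins fall within a long noncoding RNA gene, 4833445I07Rik, from 108567533 to 108569174. One of its transcripts is a single exon that covers both hairpins. The exons of its other transcript, from 108567893 to 108568180 and from 108568484 to 108568774, overlap neither hairpin. GENCODE also lists a gene of type miRNA, Gm24083, from 108568295 to 108568414 on the minus strand opposite Mir191. Whether counting used strand is not given in the sources used here, so reads of Mir191 and of that gene cannot be told apart.

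Both partners were present in all 8 hearts, but miR-191-5p was far more abundant. Levels are CPM, which is read counts relative to the mature reads of a library, scaled between libraries with TMM factors. miR-191-5p had 3166, 2686, 2806 and 2222 CPM in female replicates 1 to 4, against 3311, 2659, 2648 and 2845 CPM in male replicates 1 to 4. The lowest heart was female replicate 4 and the highest was male replicate 1, and the sexes overlapped. Its share of all mature reads, without scaling, averaged 0.293% ± 0.0751 in the 4 female hearts and 0.269% ± 0.0190 in the 4 male ones (± SD), and by mean CPM it stood 39th of the 562 miRNAs that passed the filter on low counts.

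miR-425-5p stood 153rd. It had 66.6, 35.1, 65.2 and 35.9 CPM in female replicates 1 to 4, against 75.7, 86.3, 54.0 and 99.5 CPM in male replicates 1 to 4. Female replicates 2 and 4 lay well below the other 6 hearts, while male replicate 3 lay below female replicates 1 and 3, so the sexes overlapped here too. miR-425-3p, the lesser arm, had 6.68, 5.42, 8.52 and 5.34 CPM in female hearts and 4.79, 7.0, 5.0 and 7.94 CPM in male hearts, in the order of the replicates. The highest was female replicate 3, and the hearts of each sex covered nearly the same range. miR-191-3p had 11 reads in female replicate 4 and 0 in the other 7 hearts, and was left out by the filter on low counts.

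**Figure D1:**
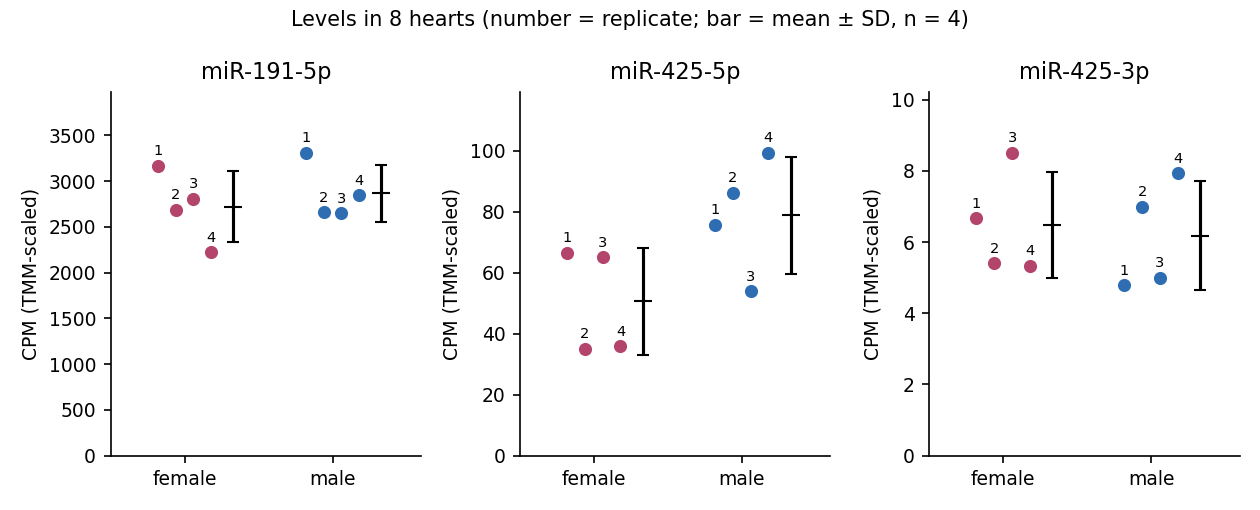
Level in CPM (y axis, TMM-scaled) of miR-191-5p, miR-425-5p and miR-425-3p in each female and male heart (points, with the replicate number), with the mean and SD of the 4 hearts of a sex as a bar. The miR-191-5p values lie close together, whereas miR-425-5p reaches 99.5 CPM in male replicate 4 and 35.1 CPM in female replicate 2.

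The levels were compared between the sexes with edgeR's quasi-likelihood test over all 562 miRNAs, with Benjamini-Hochberg adjustment. Of the 3 members tested 0 passed an adjusted p of 0.05, as did 0% of all miRNAs. DESeq2 called 3 of the 562 and limma-voom 0, and no member was among those calls. The 4 female values lay all below the male ones for 1.25% of the 562 and all above them for 1.78%, and the members were in neither group. At an unadjusted p under 0.05 there were 28 miRNAs, or 4.98%, and 12 of these, or 2.14% of all, had the lower level in female hearts. One of the 12 was miR-425-5p.

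miR-191-5p averaged 2720 ± 390 CPM over the 4 female hearts and 2866 ± 310.2 CPM over the 4 male ones (± SD). The edgeR estimate of log2 fold change, female minus male, was -0.08 (SE 0.17) with an adjusted p of 0.963, next to a median of -0.06 over all 562. miR-425-5p averaged 50.7 ± 17.6 CPM over the 4 female hearts and 78.9 ± 19.2 CPM over the 4 male ones (± SD). The log2 fold change was -0.64 (SE 0.28), with an unadjusted p of 0.0431 and an adjusted p of 0.801 in edgeR. It was -0.41 (SE 0.33) with library size alone as scaling, where the median of all miRNAs moved to 0.13. miR-425-3p averaged 6.49 ± 1.49 CPM over the 4 female hearts and 6.18 ± 1.54 CPM over the 4 male ones (± SD). The edgeR log2 fold change was 0.07 (SE 0.25), with an adjusted p of 0.969. The mean of the abundant arm of miR-425 was thus lower in female hearts, that of its other arm was about equal, and neither difference passed.

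The ratio of the partners is a measure within each library, so it needs no scaling. There were 47.5, 76.6, 43.1 and 61.9 reads of miR-191-5p for each read of miR-425-5p in female replicates 1 to 4, against 43.7, 30.8, 49.0 and 28.6 in male replicates 1 to 4. Female replicate 2 held the highest ratio and male replicate 4 the lowest, and female replicates 1 and 3 fell within the male range. On the log2 scale the female hearts averaged 5.80 ± 0.38 and the male hearts 5.21 ± 0.38 (± SD, n = 4). The difference was 0.59 (SE 0.27), or a ratio 1.505 times as high in female hearts. A two-sided exact permutation of the sexes over 70 arrangements, where no p can be below 0.0286, gave p = 0.143. The adjusted p over the 2 ratios tested was also 0.143.

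With both arms of each hairpin added up, the female hearts averaged 5.62 ± 0.35 and the male hearts 5.10 ± 0.38 on the log2 scale (± SD, n = 4). The difference was 0.52 (SE 0.26), with an exact permutation p of 0.143 and an adjusted p of 0.143. Neither difference passed the test. In single hearts the mature reads of mir-191 were 26.5 to 66.3 times those of mir-425.

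Arm use differed sharply between the partners. mir-191 gave reads of the 5' arm nearly alone, as its 3' arm made up 11 of 74952 mature reads in female replicate 4 and was listed at 0 elsewhere. These few reads were 0.0147% of the mature reads of mir-191 in that heart. Since the tables appear to leave out distinct sequences below 10 copies, a listed 0 sets no upper limit on the 3' arm.

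mir-425 used both arms, with the 5' arm ahead in each heart. There were 9.98, 6.48, 7.65 and 6.73 reads of the 5' arm for each read of the 3' arm in female replicates 1 to 4, against 15.8, 12.3, 10.8 and 12.5 in male replicates 1 to 4. All 4 female hearts lay below all 4 male hearts. Expressed as a share, the 3' arm held 11.7% ± 1.92 of the mature reads of mir-425 in the 4 female hearts and 7.33% ± 1.04 in the 4 male ones (± SD). The closest hearts across the sexes were female replicate 1 at 9.11% (95% Wilson interval 7.89 to 10.5) and male replicate 3 at 8.48% (7.34 to 9.78), whose intervals overlap. Such intervals cover counting error only, and not reads of scarce sequences that the tables appear to leave out.

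On the log2 scale, with 0.5 added to each count, 5' over 3' arm reads averaged 2.92 ± 0.28 for mir-425 in the female hearts and 3.67 ± 0.23 in the male ones (± SD, n = 4). The difference of -0.75 (SE 0.23) had an unadjusted p of 0.00902 and an adjusted p of 0.338 with limma over 75 hairpins that had enough reads on both arms. It was the second smallest p of the 75. One hairpin, let-7d, passed the adjusted threshold, which is 1.33% of the 75, and it failed on leaving out any heart other than female replicate 4. mir-425 did not pass, and it was one of 2 (2.67%) whose 4 female values were all below the male ones, with 0 (0%) all above. At an unadjusted p under 0.05 there were 4, or 5.33%. In 48 of the 75, or 64%, the difference was below 0, as for mir-425. The sum of the 2 miRNAs listed for fibroblasts, both detected, separated the sexes in the other direction. It was 1962 to 3684 CPM in female and 1564 to 1794 CPM in male hearts. Among the 562 miRNAs tested for level, 1.78% had all 4 female values above the male ones. Most of the fibroblast sum was miR-199a-3p (edgeR log2 fold change 0.51, SE 0.23, adjusted p = 0.801). The other, miR-214-3p, did not separate the sexes. It had 46.6, 25.2, 40.4 and 30.1 CPM in female replicates 1 to 4, against 83.6, 31.4, 31.4 and 36.5 CPM in male replicates 1 to 4. The sums of the lists for cardiac muscle, endothelium, smooth muscle, leukocytes and erythroid cells overlapped between the sexes. The part of the fibroblast list in the arm ratio was not tested.

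**Figure D2:**
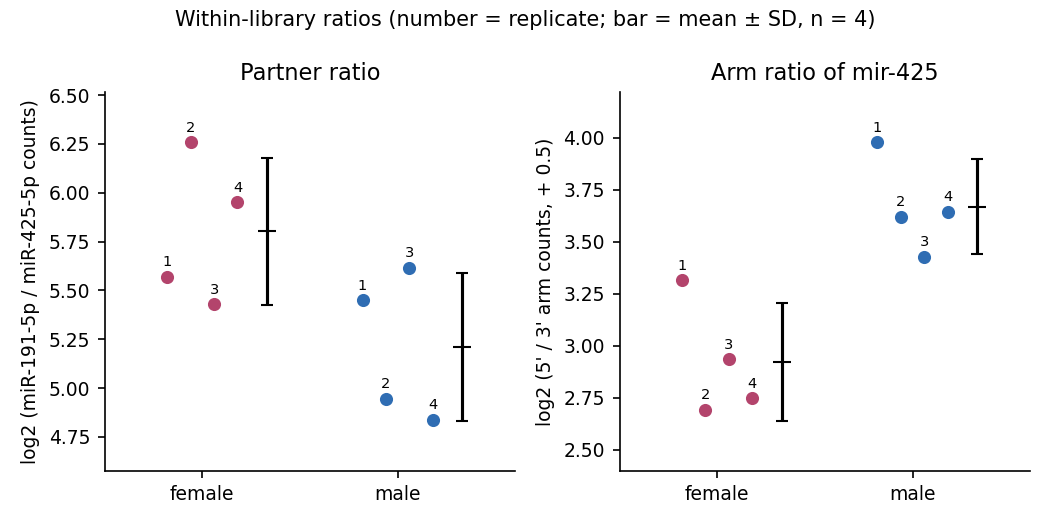
Log2 ratio of miR-191-5p to miR-425-5p counts (left) and of 5' to 3' arm counts of mir-425 (right) in each female and male heart (points, with the replicate number), with the mean and SD of each sex. The partner ratios overlap between the sexes, and the arm ratios of mir-425 do not.

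Reads of the 3' arm of mir-425 were listed under a mouse and a human entry. The mouse entry had 145, 192, 294 and 159 reads in female and 107, 193, 143 and 196 in male hearts, in the order of the replicates. The human entry had 27, 24, 70 and 21 reads in female and 30, 23, 27 and 28 in male hearts, or 10.6% to 21.9% of the 3' arm reads of a heart. The entries differed in how many reads matched the listed mature sequence exactly. Over the 8 hearts this held for 121 of 1429 reads (8.47%) of the mouse entry and for 134 of 250 (53.6%) of the human one. The human entry had few reads, and in female replicate 4 all 21 were exact. Since scarce sequences appear to be left out, inexact reads of the human entry may be missing. With the mouse entry alone the arm ratio difference of mir-425 was -0.76 (SE 0.25, limma adjusted p = 0.455 over 66 hairpins).

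The tables also hold other reads of a hairpin, counted on neither mature arm and here called outside the arms. The label does not say where on the hairpin they lie, so they may overlap an arm. For mir-425 they made up 25.9%, 34.96%, 25.3% and 32.3% of hairpin reads in female replicates 1 to 4, against 23.9%, 26.6%, 31.8% and 14.6% in male replicates 1 to 4. Male replicate 4 had the smallest share (95% Wilson interval 13.5 to 15.8) and female replicate 2 the largest (33.1 to 36.9), and the sexes overlapped. Of these reads, 78.8% to 90.0% matched the hairpin exactly in each heart. For mir-191 the share was smaller and steadier, at 7.89% ± 0.782 in the 4 female hearts and 7.80% ± 0.359 in the 4 male ones (± SD).

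Both hairpins stood above most others in this measure. Over the 8 hearts together, reads outside the arms were 26.2% of those of mir-425 and 7.84% of those of mir-191, where the median of 312 hairpins with at least 1000 reads was 1.82%. Of the 312, 38 had a share at least as large as mir-425 and 82 one at least as large as mir-191. Where on the hairpins these reads start is not given in the tables, so whether they overlap an arm is not known. They outnumbered the 3' arm reads of mir-425 in every heart, and even in male replicate 4, the heart with the smallest share, there were 519 reads outside the arms and 224 on the 3' arm.

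**Figure D3:**
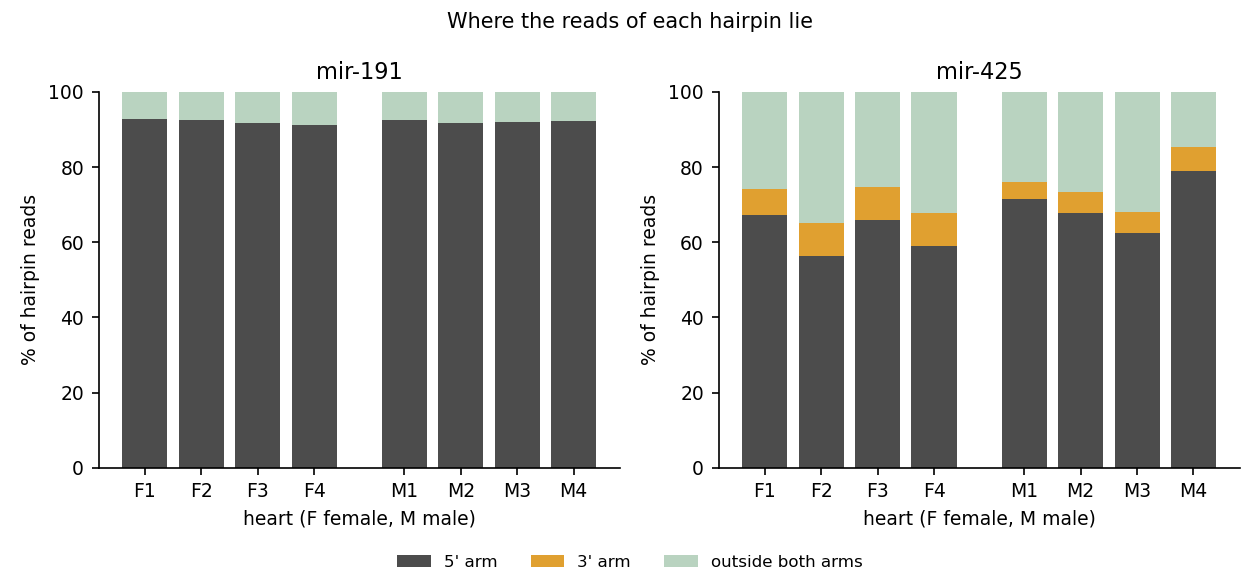
Share of the hairpin reads of mir-191 and mir-425 (y axis, percent) for each of the 4 female (F) and 4 male (M) hearts. Reads are split into the 5' arm, the 3' arm and those counted on neither (shown as outside both arms). The 3' arm of mir-191 is too small to see, and reads counted on neither arm take 14.6% to 34.96% of mir-425.

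Within an arm, few reads of miR-425-5p matched the listed mature sequence exactly. The exact share averaged 7.85% ± 1.25 over female hearts and 7.62% ± 1.74 over male hearts, against 29.9% ± 5.48 over female hearts and 28.8% ± 1.27 over male hearts for miR-191-5p (± SD, n = 4). For miR-425-3p it averaged 14.8% ± 3.52 over female hearts and 16.1% ± 4.49 over male hearts (± SD, n = 4). This share adds exact reads of the human entry, 134 over the 8 hearts, to the 121 of the mouse entry. With the mouse entry alone it was 8.47% over the 8 hearts together. Among 278 miRNAs of at least 10 CPM, 64 had an exact share as low as that of miR-425-5p or lower, around a median of 26.0%. For miR-191-5p 153 did, so it lay near the middle. No sex difference passed in any of the 3 arms, with female minus male differences of 1.15, 0.229 and -1.25 percentage points for miR-191-5p, miR-425-5p and miR-425-3p and exact permutation p of 0.8286, 0.914 and 0.657 (adjusted p 0.914 for each).

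Covariation over hearts asked whether a heart rich in one partner was rich in the other. In log2 CPM, miR-191-5p and miR-425-5p had a Pearson r of 0.582 (exact permutation p = 0.127, adjusted p over 3 pairs 0.261) and a Spearman rho of 0.524 (exact permutation p = 0.197, adjusted p 0.584) over the 8 hearts. Without the 2 hearts farthest from the median of miR-191-5p, female replicate 4 and male replicate 1, r was 0.250. Without female replicate 4 alone it was 0.301, so the relation rested largely on that heart, which was low in both. With each sex centred on its own mean r was 0.574, and 4 hearts of a sex are too few for a value within it.

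The arms of mir-425 had an r of 0.539 (exact permutation p = 0.174, adjusted p 0.261) and a rho of 0.357 (exact permutation p = 0.389, adjusted p 0.584). Without female replicates 2 and 4, the farthest in miR-425-5p, r was 0.422, and with each sex centred on its own mean it was 0.826 (exact permutation, adjusted p 0.0700). miR-191-5p and miR-425-3p had an r of 0.0890 (exact permutation p = 0.834, adjusted p 0.834) and a rho of 0.0952 (exact permutation p = 0.840, adjusted p 0.840). Without female replicate 4 and male replicate 1 that r was 0.362, and it was 0.674 with library size alone as scaling and 0.729 with exact reads only (exact permutation, adjusted p 0.188 and 0.212). Of the 3 pairs 0 passed.

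**Figure D4:**
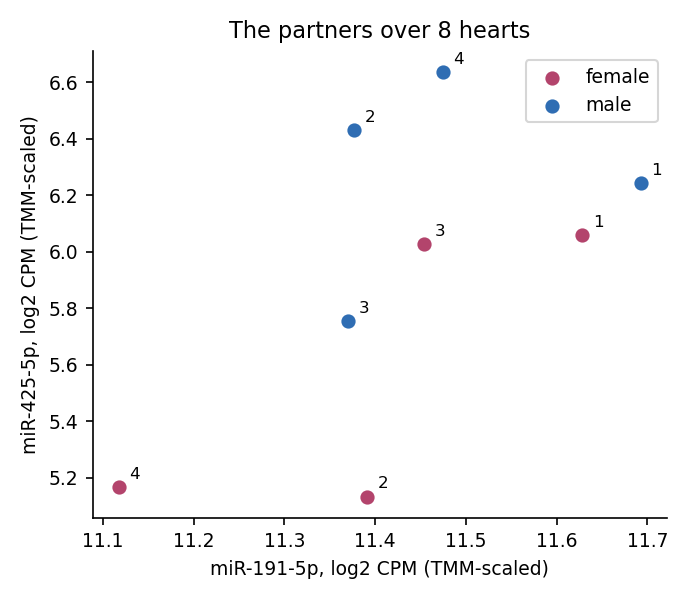
Log2 CPM of miR-191-5p (x axis) and miR-425-5p (y axis) in the 8 hearts, with the replicate number beside each point. Female replicate 4 is low in both, and the range of miR-425-5p is wider than that of miR-191-5p.

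Other pairs of hairpins thought to share a transcript show how the partners compare, as a description. For 18 such pairs the log2 ratio of the main arms had an SD over hearts of 0.16 to 2.39, with a median of 0.47. The 2.39 was that of miR-200c-3p and miR-141-3p, and miR-141-3p was at 0 in 3 hearts. That of miR-191-5p to miR-425-5p was 0.47, and 9 of the 18 had an SD as small or smaller. The r over hearts ran from -0.310 to 0.920 with a median of 0.441, and 7 of the 18 pairs reached the 0.582 of miR-191-5p and miR-425-5p. A mean ratio farther from 1 to 1 than the 45.5-fold of the partners was found in 6 of the 18. In 6 of the 18 pairs a main arm is also made by another copy elsewhere. Among the other 12 pairs, 5 had an SD as small or smaller and 4 an r as high or higher. In the 17 pairs without miR-200c-3p and miR-141-3p, a subset chosen after the values were seen, the SD ran from 0.16 to 0.96, 9 had one as small as the partners or smaller, 6 reached their r and 5 were farther apart. The r values share the libraries and their scaling.

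The miRNAs whose levels ran most like those of the members were found by r in log2 CPM over the 8 hearts among those of at least 100 CPM. For miR-191-5p these were miR-146a-5p (0.870), a human entry named miR-103b-5p (0.807), miR-16-5p (0.801), miR-185-5p (0.785) and miR-195a-5p (0.762). miR-425-5p, set among them, came 12th of 134. For miR-425-5p the closest were miR-195a-5p (0.853), miR-16-5p (0.683), miR-146a-5p (0.681), let-7b-5p (0.677) and miR-486b-5p (0.677), with miR-191-5p 15th of 134. Thus 3 miRNAs, miR-146a-5p, miR-16-5p and miR-195a-5p, were among the closest to both members. These r values were picked as the highest of many over 8 hearts, where high values also arise by chance, and were not tested. miR-146a-5p was lowest in female replicate 4 (641 CPM) and highest in male replicate 1 (2789 CPM), as was miR-191-5p. These r values were not computed without those hearts. miR-16-5p and miR-195a-5p belong to one seed family, and miR-146a-5p, an inhibitor of inflammatory signalling, is on the list of leukocyte miRNAs. From that list miR-150-5p and miR-155-5p were also compared, and neither was among the closest 5 of either member. The arms of miR-142a, miR-223 and miR-342 were below 100 CPM and were not compared.

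Levels of blood cell miRNAs are given beside this because both partners are also made by blood cells. The 8 leukocyte miRNAs listed, all detected, summed to 1181 to 2162 CPM in female and 1272 to 3450 CPM in male hearts. Most of this sum was miR-146a-5p, with 2789 of the 3450 CPM in male replicate 1 and 641 of the 1181 CPM in female replicate 4. The 5 erythroid ones, all detected, summed to 6639 to 9954 CPM in female and 8662 to 10630 CPM in male hearts, nearly all of it miR-486a-5p and miR-486b-5p, near-identical copies whose reads are uncertain. The ranges of the sexes overlapped in both lists. Of the scarcer erythroid miRNAs, miR-451a-5p had 67.0, 154, 75.4 and 44.0 CPM in female replicates 1 to 4, against 135, 889, 142 and 385 CPM in male replicates 1 to 4. Its edgeR log2 fold change was -2.19 (SE 0.60, unadjusted p = 0.00344, adjusted p = 0.481), and that of miR-144-5p was -2.22 (SE 0.76, adjusted p = 0.698). miR-144-5p had 3.96, 17.1, 4.23 and 5.99 CPM in female replicates 1 to 4, against 8.53, 104, 15.1 and 18.1 CPM in male replicates 1 to 4. In miR-144-3p, female replicate 2 (42.2 CPM) lay above every male heart but replicate 2 (182 CPM). The part of either list in the levels of miR-191-5p and miR-425-5p was not tested, and in whole hearts fewer cells of a type and less RNA per cell cannot be told apart.

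The steadiness of miR-191-5p between hearts was set against other miRNAs, since it serves as a reference in other work. The SD of its log2 CPM over the 8 hearts was 0.18, and its highest heart was 1.49 times its lowest. Of 134 miRNAs of at least 100 CPM, 10 had an SD as small, itself among them, around a median of 0.31. Its partner miR-425-5p had an SD of 0.55, with 2.84-fold between its highest and lowest heart, and miR-425-3p one of 0.32. Of the 134, 123 had an SD no larger than that of miR-425-5p. With a mean of 64.8 CPM, miR-425-5p is not one of the 134, which are more abundant.

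All 19 miRNAs listed as PCR references were detected, one of them as 2 numbered copies. The SD of these 20 ran from 0.14 for miR-484-5p to 0.55 for miR-425-5p, with a median of 0.24, and miR-191-5p had the second smallest. References were taken by name, so reads under related names were not added. The listed miR-103-3p had a mean of 37.2 CPM, beside 843 CPM for miR-103b-5p. In 14 of the 20 the mean was lower in female hearts with TMM scaling, in 11 with RLE factors (relative log expression, the method of DESeq2) and in 8 with library size alone, so their direction depends on the scaling. With TMM the median log2 fold change was -0.09, beside -0.06 over all 562 miRNAs and 57.5% of those with a lower mean. By edgeR's test 0 of the 20 passed. A TMM factor is itself computed from the bulk of the miRNAs, so this steadiness is relative to it. With library size alone the SD of miR-191-5p was 0.25.

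**Figure D5:**
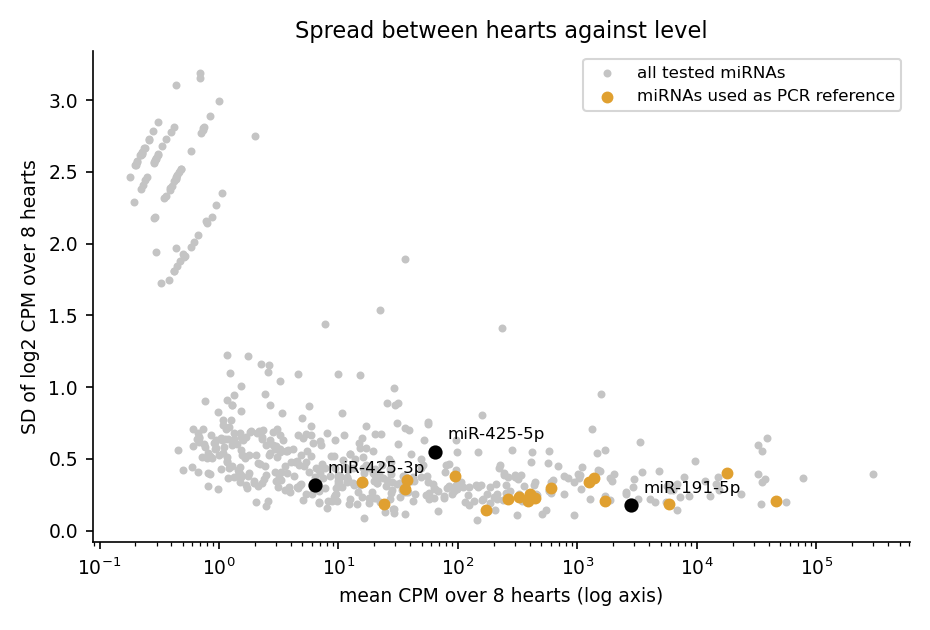
SD of log2 CPM over the 8 hearts (y axis) against mean CPM (x axis, log) for all 562 miRNAs tested (grey), for the miRNAs listed as PCR references (orange) and for the members (black). miR-191-5p lies at 0.18 near the lower edge and miR-425-5p at 0.55, above most miRNAs of its level or higher.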

How the data were processed

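The deposited tables, 1 per heart, hold raw read counts per hairpin entry of mouse, human or rat, split per the file headers into mature 5' arm, mature 3' arm and other reads, each also for exact matches. The submitters' processing notes name STAR and mm10. The sources used here do not give the counting tool, trimming or strand use. Unique-read columns held 0 values from 1 to 9, so distinct sequences below 10 copies appear to be left out. Low counts are therefore imprecise, and those of scarce arms may be too low. The effect of this on the arm ratios, partner ratios and exact shares was not tested. All member reads were unique to 1 entry. Reads outside the arms stayed out of library sizes and of tests between the sexes.

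Counts of the same name and arm were summed over species, and numbered copies were summed where under 50% of their reads were unique to 1 copy. edgeR 4.0.16 (R 4.3.3, TMM, filterByExpr with minimum count 10 and minimum total 15) fitted sex alone to 562 miRNAs; SEs were fold changes over the root of F. limma 3.58.1 fitted arm ratios (pseudocount 0.5) of 75 hairpins with a mean of at least 100 counts on each arm and no 0. Single values were tested by exact permutation over 70 arrangements, and correlations over 40320 pairings. Correlations used log2 CPM with a prior count of 0.5. DESeq2 1.42.0, limma-voom, other scalings, filters and units, a replicate block and leaving out each heart were alternatives. Functions were tested on simulated data. The named genes were all member arms and, for likeness, the 5 miRNAs with the highest r with each main arm. The members and lists were chosen with earlier results of these data known. Replicates are separate hearts, per the labels' protocols.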

Additional observations from a re-analysis of the deposited data

Results flagged for a closer look

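Reads outside the main measurement were found for both hairpins. Those counted on neither arm made up 26.2% of the reads of mir-425 over the 8 hearts (14.6% to 34.96% in single hearts) and 7.84% of those of mir-191 (7.14% to 8.76%). They entered no test between the sexes. The 3' arm of mir-191, which was not tested, had 11 reads in female replicate 4 and 0 in the others. No heart stood far from the other 3 of its sex by Dixon's criterion in any of 22 groups of 4 examined (levels, ratios, exact shares and shares outside the arms), where chance sets apart about 1 in 20 groups.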

How the results depend on the processing

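No member passed under any alternative run: the adjusted p was at least 0.168 for the arm ratio of mir-425, 0.568 for the level of miR-425-5p, 0.114 for the partner ratios, 0.75 for the exact shares and 0.0700 for the correlations. The 0.0700 was for sex-centred values, whose permutation was not exact. The difference in arm ratio ran from -0.88 to -0.64, that of miR-425-5p from -0.74 to -0.41 and that of the partner ratio from 0.44 to 0.72. The log2 fold change of miR-191-5p turned to 0.0297 with upper quartile factors, 0.12 with library size alone, 0.0108 with no filter and 0.0789 with exact reads, and ran from -0.0693 to 0.0419 with 1 heart left out, above 0 without female replicate 4 or male replicate 1. That of miR-425-3p then ran from -0.0438 to 0.28, below 0 only without female replicate 3. The r of miR-191-5p and miR-425-3p was -0.00750 with mouse entries only and ran from -0.178 to 0.516 with 1 heart left out, below 0 only without female replicate 4 and highest without male replicate 1. The exact share differences, female minus male, then ran from -1.37 (without female replicate 3) to 2.65 points for miR-191-5p, from -0.410 (without male replicate 4) to 0.998 for miR-425-5p, also below 0 without female replicate 1 or 3, and from -2.61 to 0.930 (without male replicate 1) for miR-425-3p. Over all miRNAs the calls were 1 with no filter, with at least 10 CPM in 4 libraries, with mouse entries only and with exact reads, 3 with DESeq2 and 0 to 2 with 1 heart left out, above 0 only without female replicate 3. The arm ratio calls were 0 with at least 20 counts on each arm and 0 to 1 with 1 heart left out. The cause of these changes was not tested. The exact reads of the 3' arm were too few for the arm ratio of mir-425, and the filter of 10 CPM left out miR-425-3p.

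With the replicate number as a replicate block, 1 miRNA and 0 arm ratios were called; miR-425-5p was at -0.67 (edgeR adjusted p = 0.568) and the arm ratio of mir-425 at -0.75 (limma adjusted p = 0.199). The partner ratios had an adjusted p of 0.375 in an exact sign-flip test, whose smallest p is 0.125. Deviations of hearts with the same number from their sex's mean correlated across miRNAs at 0.265, 0.239, 0.263 and -0.0150 for numbers 1 to 4, and female replicate 4 correlated best with male replicate 1 (0.109), so the numbers were not taken as pairs. Depth limits both 3' arms, with 137 to 364 reads of miR-425-3p and 0 to 11 of miR-191-3p in a heart.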
